A study of Mus musculus with 4 samples.

Results

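Cytokine receptors, Janus kinases, Stat factors and their Socs, Cish and Pias inhibitors were examined in monocytes cultured with retinoic acid. The genes were chosen by name, as 44 mouse symbols, and were read on probe sets that the platform annotation pairs with exactly 1 symbol. Of the 44, 42 genes were measured, on 45 probe sets, out of 22180 named genes and 39720 tested probe sets. Il2rg and Jak3 were not analysed here. The RA group had 2 arrays, from mouse Ly6c-high bone marrow monocytes given all-trans retinoic acid at 100 nM when the culture began. The DMSO group had 2 arrays, from the same kind of cells given the solvent alone. Both groups were grown for 24 h (day 1) with GM-CSF and interleukin 4 at 20 ng per ml each, after monocyte enrichment and sorting of bone marrow pooled from 3 mice. The labels give no strain, sex or age, and they do not say whether the replicates were separate cultures, so the p-values speak to the variation among these arrays alone, and that variation may be technical.

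Type I and type II cytokine receptors have no kinase of their own. They carry Janus kinases, which phosphorylate the receptor and then Stat factors when the cytokine binds, and the Stat factors move to the nucleus. Stat factors switch on Cish and several Socs genes, whose products block the receptors and kinases in a negative feedback, while Pias proteins restrain Stat factors in the nucleus. In monocytes, GM-CSF signals mainly through Jak2 and Stat5, and interleukin 4 through Jak1, the gamma common chain with Jak3, and Stat6.

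Few of these genes passed the threshold. At a limma adjusted p under 0.05, Ifngr1, a chain of the interferon gamma receptor, rose with retinoic acid, and Il17ra, the shared chain of interleukin 17 receptors, and the kinase gene Jak2 fell. The other 39 genes did not pass, which does not show that they were unchanged. In simulated arrays with 200 of 39720 probe sets changed, the same test recovered 0.4% of 1.5-fold and 41.2% of 2-fold changes. It recovered 91.2% of 4-fold and 97.5% of 8-fold changes. On the real arrays 831 probe sets were called, more than the changes simulated, so these shares are not the recovery in these data. The share called was 7.14% of the 42 genes, against 3.07% of all 22180 genes (1.28% higher and 1.79% lower; 2.09% of all tested probe sets) and 5.16% of the 12772 genes whose mean lay above the dim level. That level, 6.35 on the log2 scale, is the 95th percentile of the mean over 1405 probe sets of olfactory and vomeronasal receptors, and all 42 genes lay above it in both groups. At an unadjusted p under 0.05 there were 17 of the 42 genes, a larger share than the 15.1% of all genes. Of the 12772 genes with a mean above the dim level, 2864 had such a p. Values are log2 RMA intensities, and differences are the RA mean minus the DMSO mean with limma's standard error (SE).

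Small differences leaned downward. The difference was negative for 30 of the 42 genes and positive for 12, with a median of -0.10. Over all genes it was negative for 10521 of 22180, with a median of 0.01. Above the dim level it was negative for 5761 of 12772 genes. Both RA arrays lay below both DMSO arrays for 23 of the 42 genes, a larger share than the 23% of all 22180 genes. They lay above for 8 of the 42, a smaller share than the 25% of all genes, and the groups overlapped for 11. Of the 12772 genes above the dim level, 3273 had both RA arrays below and 3928 had both above. The 31 genes without overlap made up 73.8%, beside 48% of all genes and 56.4% of those with a mean above the dim level. In all, 7 of the 42 genes differed by at least 0.5 in either direction (Il21r, Il7r, Il17ra, Ifngr1, Jak2, Tyk2 and Il6ra). Of all genes 5.64% did so, and of the 12772 genes above the dim level 1148 did. Because these are bulk cultures, fewer cells of a type and less RNA per cell cannot be told apart.

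**Figure D1:**
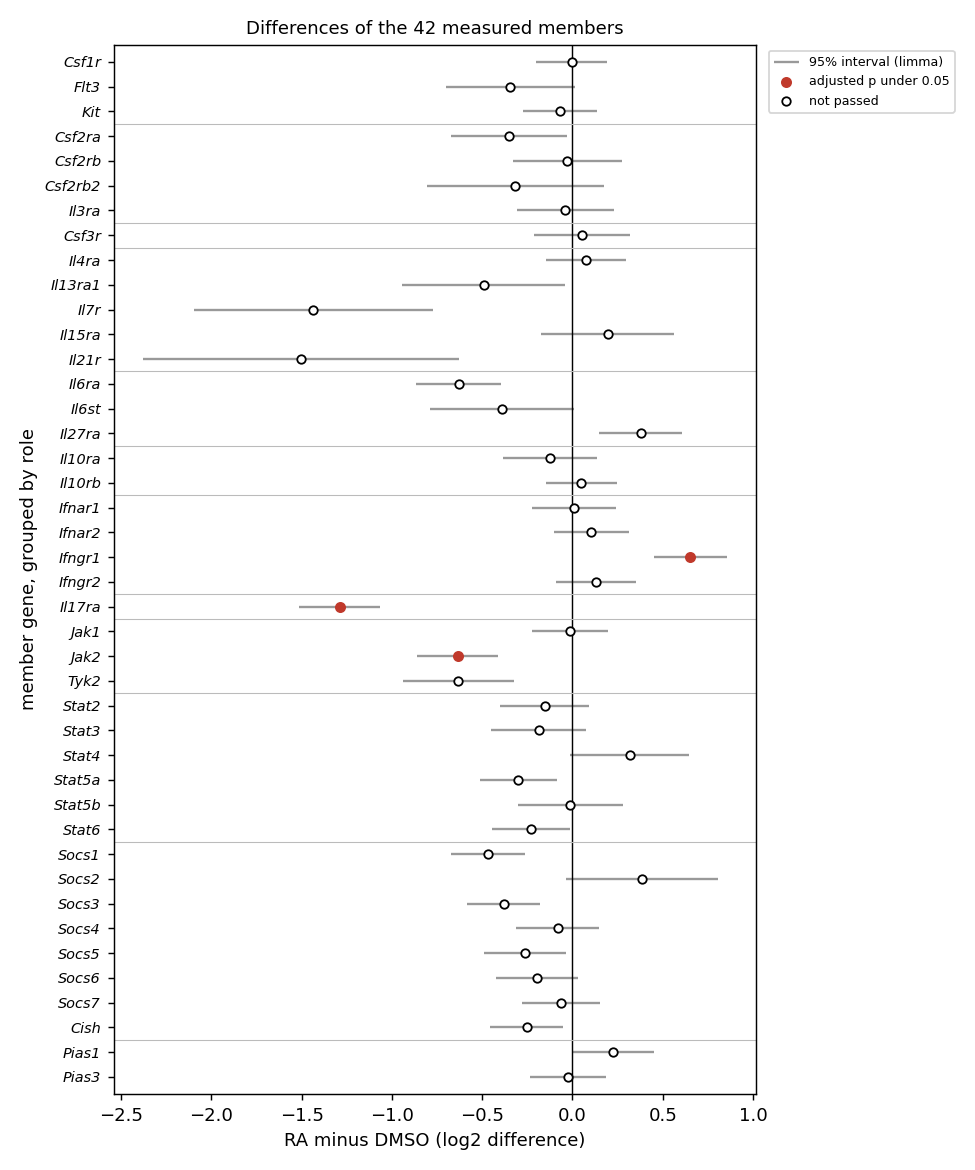
Difference between RA and DMSO arrays (log2, x axis) for each of the 42 measured genes (y axis, grouped by role), with points for limma's estimates and lines for their 95% intervals. Filled points mark Ifngr1, Il17ra and Jak2, which passed an adjusted p of 0.05, and most open points lie left of 0.

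The labelled cell type was checked on 8 measured monocyte markers, all of which lay above the dim level. They summed, in linear intensity, to 24102.5 to 25340.6 with RA and 21134.9 to 22112.7 with DMSO, and 1 of them passed: Klf4, a transcription factor gene of monocytes, was 3.83-fold lower (-1.94, adjusted p = 0.00826; 0.0618 to 0.082 without RA replicate 1, RA replicate 2, DMSO replicate 1 or DMSO replicate 2). Among the other cell types, the summed linear intensity of 10 neutrophil markers was 16823.3 to 17750.1 with RA and 17001.6 to 17216.6 with DMSO. Its brightest members included Elane, Mpo and Prtn3, which monocyte precursors make as well. Other bright members were Ngp (mean 11.29 with RA, 11.42 with DMSO), Ltf (10.50 and 10.57) and Mmp8 (10.50 and 10.02). Ly6g, which defines neutrophils, averaged 6.42 with RA and 6.33 with DMSO, and Camp 7.81 and 7.88. The chemokine receptor Cxcr2 fell (-1.15, adjusted p = 0.0167) and Retnlg, under the dim level in both groups, rose (1.06, adjusted p = 0.0227). The 7 measured T and NK cell markers summed to 370.4 to 371.2 with RA and 368.7 to 379.4 with DMSO, and none passed. The 6 B cell markers summed to 443.3 to 443.6 with RA and 345.1 to 354.1 with DMSO, where Cd79b rose (0.65, adjusted p = 0.0471), and 4 of the 6 were under the dim level in both groups. Of 5 eosinophil markers, Siglecf rose (0.61, adjusted p = 0.0488). The Cd79b call was lost after median centring (adjusted p = 0.0553) and the Siglecf call after quantile normalization (0.0518). None of the erythroid, basophil, plasmacytoid or progenitor markers passed. The part of these markers in the results below was not tested. Median intensities were 80.0 and 81.8 on the RA arrays and 81.3 and 81.2 on the DMSO arrays.

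Promoter sequence was available from RefSeq (GRCm38.p6) for 32 of the 42 genes, as 38 start sites, and the 250 bases before each start were searched on both strands for 3 motifs. TTCNNNGAA is the palindrome that Stat dimers bind, AGGTCA is the half-site of retinoic acid receptors and related nuclear receptors, and GGGCGG is the GC box bound by Sp1. TTCNNNGAA stood in 4 of the 38 windows (10.5%), those of Csf2rb2, Ifnar2, Il7r and Socs3, against 7.0% of all 32851 windows. AGGTCA stood in 6 (15.8%), those of Il21r, Stat4, Stat6, Stat5b and both starts of Stat5a, against 14.0% of all. GGGCGG stood in 25 (65.8%), against 32.7% of all. Il17ra, which passed the threshold, had no promoter sequence available and was not searched. Windows are shown for Ifngr1 and Jak2, which passed the threshold, for Il7r, Ifnar2 and Socs3, which hold a Stat motif and whose groups did not overlap (RA below for Il7r and Socs3, above for Ifnar2), and for Bcl6, a Stat-regulated gene with several such motifs that is described with the other pathway genes. They read 5′ to 3′ on the strand of the gene, end just before the start site, and carry each motif match in capitals; no matches overlap in them.
Ifngr1 (chr10:19591699-19591948, forward strand): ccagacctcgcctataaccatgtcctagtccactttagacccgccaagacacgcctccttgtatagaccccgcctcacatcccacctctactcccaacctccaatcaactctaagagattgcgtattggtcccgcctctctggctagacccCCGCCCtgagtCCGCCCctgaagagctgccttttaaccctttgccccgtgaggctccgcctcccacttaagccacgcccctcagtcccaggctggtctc
Jak2 (chr19:29251553-29251802, forward strand): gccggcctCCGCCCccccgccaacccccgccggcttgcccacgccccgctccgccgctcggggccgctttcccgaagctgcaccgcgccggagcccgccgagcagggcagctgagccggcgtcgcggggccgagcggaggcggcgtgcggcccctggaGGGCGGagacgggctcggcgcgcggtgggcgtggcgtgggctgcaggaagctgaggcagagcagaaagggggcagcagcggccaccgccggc
Il7r (chr15:9529877-9530126, reverse strand): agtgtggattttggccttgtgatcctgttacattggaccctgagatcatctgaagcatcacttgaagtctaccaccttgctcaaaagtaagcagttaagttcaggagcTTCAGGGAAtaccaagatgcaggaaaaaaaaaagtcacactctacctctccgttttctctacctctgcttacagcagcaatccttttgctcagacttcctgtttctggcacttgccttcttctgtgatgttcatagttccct
Ifnar2 (chr16:91372533-91372782, forward strand): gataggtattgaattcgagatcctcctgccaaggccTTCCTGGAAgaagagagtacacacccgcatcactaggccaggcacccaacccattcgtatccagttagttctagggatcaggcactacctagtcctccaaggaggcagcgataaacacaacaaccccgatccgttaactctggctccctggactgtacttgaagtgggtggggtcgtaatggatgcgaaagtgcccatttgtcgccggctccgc
Socs3 (chr11:117969367-117969616, reverse strand): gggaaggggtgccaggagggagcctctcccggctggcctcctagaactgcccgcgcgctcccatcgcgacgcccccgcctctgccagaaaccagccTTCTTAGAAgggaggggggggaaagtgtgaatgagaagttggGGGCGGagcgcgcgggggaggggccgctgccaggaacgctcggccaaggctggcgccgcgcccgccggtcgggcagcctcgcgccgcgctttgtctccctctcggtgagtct
Bcl6 (chr16:23981284-23981533, reverse strand): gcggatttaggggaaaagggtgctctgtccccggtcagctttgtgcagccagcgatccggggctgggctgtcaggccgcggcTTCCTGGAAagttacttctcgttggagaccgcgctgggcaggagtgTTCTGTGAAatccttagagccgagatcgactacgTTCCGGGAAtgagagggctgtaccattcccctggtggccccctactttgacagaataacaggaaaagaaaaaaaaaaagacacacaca
In the Ifngr1 window the GC boxes begin at -99 and -88 from the start, and in the Jak2 window at -242 and -92, with neither of the other motifs in either window. The Stat motif begins at -142 in Il7r, at -214 in Ifnar2 and at -154 in Socs3, where a GC box follows at -112. The Bcl6 window shown holds 3 Stat motifs, at -168, -122 and -88, and a second Bcl6 start holds 1 at -118. A match describes letters only.

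Of the growth factor receptors with a kinase of their own, none passed. Csf1r, the receptor for CSF-1 and interleukin 34 that maintains monocytes and macrophages, read 11.86 and 11.86 on the RA arrays, against 11.87 and 11.86 on the DMSO arrays. Its difference was -0.01 ± 0.07 (SE, n = 2 each), with a 95% interval of -0.20 to 0.19, so a change of more than about 0.2 in either direction lies outside it. Flt3, the receptor for the dendritic cell growth factor Flt3 ligand, had 7.15 and 6.97 with RA and 7.56 and 7.25 with DMSO. Its groups did not overlap, but the difference of -0.34 ± 0.14 did not pass (adjusted p = 0.389). Kit, the stem cell factor receptor, differed by -0.07 ± 0.08. The 6 progenitor markers, which include Flt3 and Kit, summed to 1178.3 to 1234.7 with RA and 1394.3 to 1487.9 with DMSO. That gap lay mainly in 1 gene, Cd34, which did not pass. In linear intensity Cd34 read 497 and 476.77 with RA and 641.65 and 739.99 with DMSO. Meis1 and Gata1 had positive differences, 0.15 and 0.04, and Gata1 and Hoxa9 lay under the dim level in both groups.

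The receptor for GM-CSF, one of the cytokines in the culture, joins an alpha chain with the beta common chain. Csf2ra, the alpha chain, had 11.43 and 11.57 on the RA arrays, against 11.98 and 11.71 on the DMSO arrays. Both RA values were below both DMSO values, with a difference of -0.35 ± 0.12 that did not pass (adjusted p = 0.328). Csf2rb, the beta common chain that GM-CSF, interleukin 3 and interleukin 5 share, read 9.46 and 9.50 with RA and 9.64 and 9.37 with DMSO. The RA values lay between the DMSO values, and the difference was -0.03 ± 0.11, with a 95% interval of -0.33 to 0.27. Csf2rb2, a mouse beta chain that serves interleukin 3 alone, had 11.17 and 10.96 with RA and 11.63 and 11.14 with DMSO. Its groups overlapped, and DMSO replicate 1 stood 0.49 above DMSO replicate 2, more than the treatment difference of -0.32 ± 0.19. Csf2rb and Csf2rb2 are neighbouring genes of similar sequence, so their probe sets may share targets. Il3ra, the alpha chain for interleukin 3, differed by -0.04 ± 0.10, and Csf3r, the receptor for the neutrophil growth factor G-CSF, by 0.05 ± 0.10.

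Interleukin 4, the other cytokine in the culture, binds Il4ra, which pairs with the gamma common chain or with Il13ra1. Il4ra read 10.35 and 10.48 on the RA arrays and 10.36 and 10.33 on the DMSO arrays. The groups overlapped, and the difference of 0.07 ± 0.09 had a 95% interval of -0.15 to 0.30. Il13ra1, which forms the second type of interleukin 4 receptor and binds interleukin 13, had 8.43 and 7.99 with RA, against 8.79 and 8.61 with DMSO. Both RA values were lower, but the RA replicates were 0.45 apart and the difference of -0.49 ± 0.17 did not pass (adjusted p = 0.331).

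Among receptors that use the gamma common chain, Il7r and Il21r had the widest differences of the 42 genes, without passing the threshold. Il7r, which binds interleukin 7 and, with Crlf2, the cytokine TSLP, read 7.52 and 6.93 on the RA arrays, against 8.89 and 8.43 on the DMSO arrays. Every RA value was at least 0.9 below every DMSO value, and the difference was -1.44 ± 0.25 (2.71-fold lower, adjusted p = 0.0873). Il7r passed in 3 of 14 alternatives. These used 1-symbol probe sets alone (adjusted p = 0.0116), probe sets above the dim level, or the replicate number as a block (0.0486). The arrays do not bear out that block as a pairing. The Il7r partner Crlf2 averaged 8.84 with RA and 8.86 with DMSO. Il21r, the interleukin 21 receptor, had 7.64 and 7.31 with RA and 9.46 and 8.50 with DMSO. The groups were apart, yet the DMSO replicates differed by 0.96, and the difference of -1.50 ± 0.34 did not pass (2.83-fold lower, adjusted p = 0.146). Il21r passed as lower in 1 of 14 alternatives, with only 1-symbol probe sets tested (adjusted p = 0.0282). Il21r lies next to Il4ra on chromosome 7 in the RefSeq gene order, and the 95% intervals of the 2 neighbours, -2.38 to -0.63 for Il21r and -0.15 to 0.30 for Il4ra, did not meet. Il15ra, which presents interleukin 15 to neighbouring cells, differed by 0.20 ± 0.14 and did not pass. Il7r and Il21r are also lymphocyte receptors. Of 7 T and NK cell markers 5, and of 6 B cell markers 4, lay under the dim level in both groups. The summed B cell markers were higher with RA mainly through 1 gene, Cd79b. In linear intensity Cd79b read 218.23 and 196.98 with RA and 133.78 and 129.72 with DMSO. The part of lymphocytes in the Il7r and Il21r differences was not tested.

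**Figure D2:**
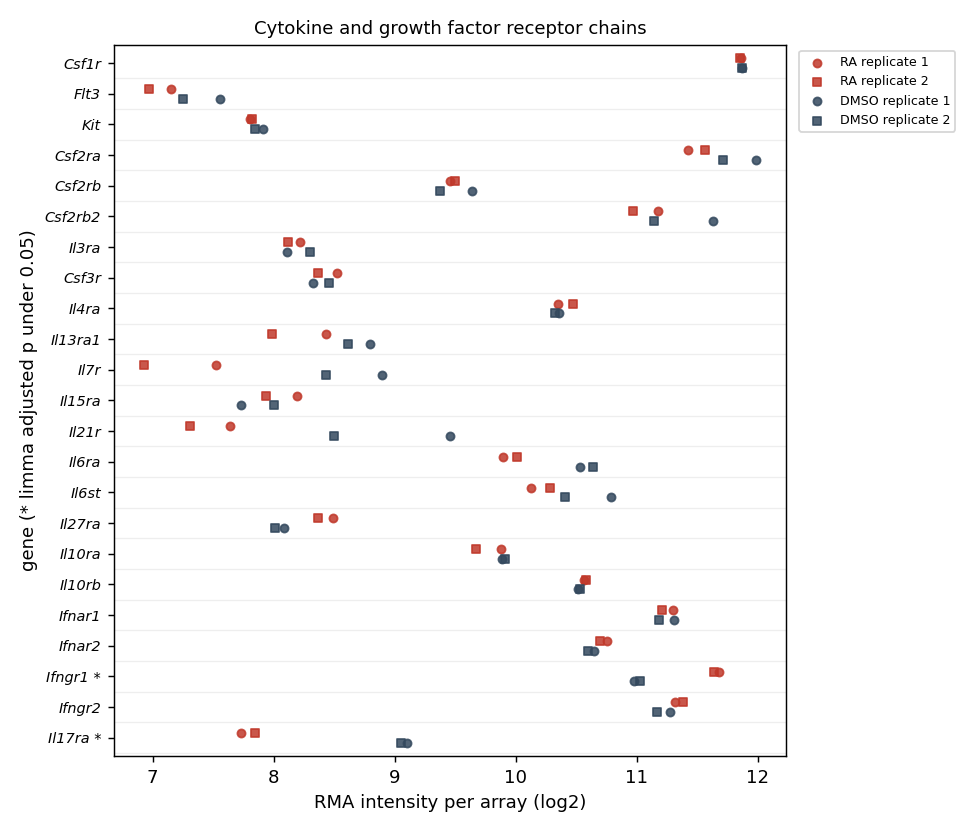
Log2 RMA intensity (x axis) of 23 receptor genes (y axis) on each of the 4 arrays, with RA arrays in red above DMSO arrays in dark blue, circles for replicate 1 and squares for replicate 2. Asterisks mark Ifngr1, whose RA points lie to the right, and Il17ra, whose RA points lie to the left; levels of different genes are not comparable.

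The gp130 family held the gene closest to the threshold on its far side. Il6ra, the chain that binds interleukin 6, read 9.90 and 10.01 on the RA arrays and 10.53 and 10.64 on the DMSO arrays. Replicates lay 0.11 and 0.10 apart and the groups 0.52 apart at their nearest, with a difference of -0.63 ± 0.09 (1.55-fold lower, adjusted p = 0.0516). Il6ra passed in 5 of 14 alternatives, among them only 1-symbol probe sets (adjusted p = 0.00726) and median centring (0.0488). Il6st, the gp130 chain that transmits signals of interleukin 6, interleukin 27, Lif and oncostatin M, had a difference of -0.39 ± 0.15 (adjusted p = 0.38). Il27ra, which pairs with gp130 for interleukin 27, went the other way, at 8.49 and 8.37 with RA and 8.08 and 8.01 with DMSO. Its difference of 0.38 ± 0.09 did not pass (adjusted p = 0.158).

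Of the receptors for interferons and interleukin 10, Ifngr1 alone passed. Ifngr1, the chain that binds interferon gamma, had 11.68 and 11.64 on the RA arrays, against 10.98 and 11.03 on the DMSO arrays. Replicates differed by less than 0.05 in each group, and the RA mean was 1.57-fold higher (0.65 ± 0.08, adjusted p = 0.0327). The direction held without any 1 array (0.63 to 0.68), but the call did not: the adjusted p lay between 0.158 and 0.211 without RA replicate 1, RA replicate 2, DMSO replicate 1 or DMSO replicate 2. Ifngr2, the signalling chain of the same receptor, read 11.31 and 11.38 with RA and 11.27 and 11.16 with DMSO, a difference of 0.13 ± 0.09 (adjusted p = 0.61). The 95% intervals of the 2 chains, 0.45 to 0.86 for Ifngr1 and -0.09 to 0.35 for Ifngr2, did not meet. Ifngr2 belongs to a run of 4 neighbouring receptor genes on chromosome 16, with Ifnar2 and Ifnar1, the type I interferon receptor, and Il10rb, the shared interleukin 10 receptor chain. Their differences were all small and positive, 0.01 for Ifnar1, 0.05 for Il10rb, 0.10 for Ifnar2 and 0.13 for Ifngr2, and none passed. Il10ra, the chain specific to interleukin 10, differed by -0.13 ± 0.10.

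Il17ra had the smallest adjusted p of the 42 genes. It read 7.73 and 7.85 on the RA arrays, against 9.10 and 9.05 on the DMSO arrays. The groups were 1.20 apart at their nearest, with replicates 0.12 (RA) and 0.06 (DMSO) apart, and the RA mean was 2.44-fold lower (-1.29 ± 0.09, adjusted p = 0.00876). Interleukin 17 receptors signal through Act1 and NF-kappaB rather than through Janus kinases. Leaving out RA replicate 1, RA replicate 2, DMSO replicate 1 or DMSO replicate 2 kept the direction (-1.35 to -1.23) and lost the call (adjusted p 0.063 to 0.0992).

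Of the 3 measured Janus kinase genes, Jak2 fell. Jak2, the kinase of the GM-CSF, interleukin 3 and interferon gamma receptors, had 12.09 and 11.97 on the RA arrays and 12.65 and 12.68 on the DMSO arrays. The groups were 0.56 or more apart, and the RA mean was 1.55-fold lower (-0.64 ± 0.09, adjusted p = 0.0448). The call was lost after median centring of the arrays (adjusted p = 0.0553). It was also lost without RA replicate 1, RA replicate 2, DMSO replicate 1 or DMSO replicate 2 (0.143 to 0.287), with the direction kept (-0.70 to -0.57). Tyk2, the kinase of type I interferon and interleukin 12 receptors, read 9.49 and 9.50 with RA and 9.99 and 10.27 with DMSO. Its difference, -0.63 ± 0.12, was nearly the same size as that of Jak2. The DMSO replicates were 0.28 apart, and Tyk2 did not pass (adjusted p = 0.10). It passed in 1 of 14 alternatives, with only 1-symbol probe sets tested (adjusted p = 0.0181). Jak1, used by interleukin 4, interleukin 6 and interferon receptors, had 11.27 and 11.34 with RA and 11.34 and 11.29 with DMSO. Those values overlapped, and the 95% interval of the difference was -0.22 to 0.19.

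None of the 6 measured Stat genes passed, and their differences ran from -0.30 to 0.32. Stat5a, a carrier of GM-CSF signals, read 9.01 and 8.99 on the RA arrays and 9.35 and 9.25 on the DMSO arrays, a difference of -0.30 ± 0.08 (adjusted p = 0.219). Its neighbour and close relative Stat5b overlapped between groups and differed by -0.01 ± 0.11. Stat6, the factor activated by interleukin 4, had 10.07 and 10.15 with RA and 10.37 and 10.30 with DMSO, a difference of -0.23 ± 0.08 (adjusted p = 0.343). Stat3, used by interleukin 6 and interleukin 10, differed by -0.19 ± 0.10, and Stat2, a partner in type I interferon signalling, by -0.15 ± 0.09. Stat4, the factor of interleukin 12 signalling, was the exception in sign, with 7.88 and 7.71 on the RA arrays and 7.34 and 7.61 on the DMSO arrays (0.32 ± 0.13, adjusted p = 0.392).

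**Figure D3:**
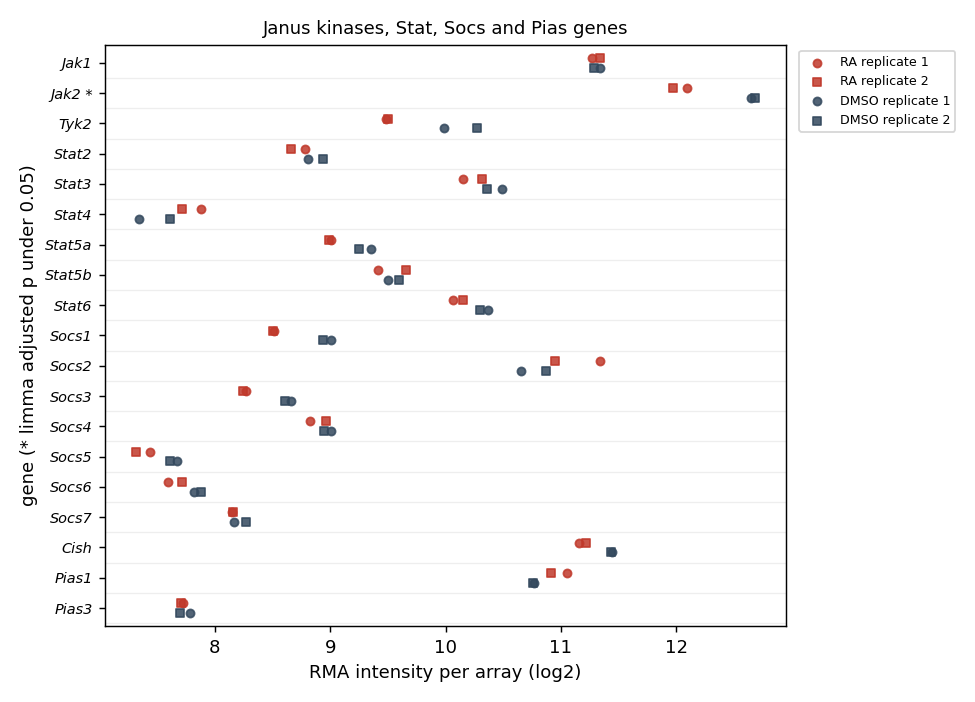
Log2 RMA intensity (x axis) of 19 Janus kinase, Stat, Socs, Cish and Pias genes (y axis) on each of the 4 arrays, with RA arrays in red above DMSO arrays in dark blue, circles for replicate 1 and squares for replicate 2. The asterisk marks Jak2, whose RA points lie left of the DMSO points. The RA points also lie left for Tyk2, Stat2, Stat3, Stat5a, Stat6, Socs1, Socs3, Socs5, Socs6, Socs7 and Cish. They lie right of the DMSO points for Stat4, Socs2 and Pias1.

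No feedback inhibitor passed. Of 8 Socs and Cish genes, 7 had a negative difference and 1 a positive one. Socs1, which blocks interferon and interleukin 4 signals, read 8.51 and 8.50 on the RA arrays, against 9.01 and 8.94 on the DMSO arrays. Replicates agreed within 0.07 and the groups were apart, with a difference of -0.47 ± 0.08 (1.38-fold lower, adjusted p = 0.0769). Socs1 passed in 3 of 14 alternatives, with only 1-symbol probe sets among them (adjusted p = 0.0159). Socs3, the brake on gp130 and G-CSF receptors whose promoter window above holds a Stat motif, had 8.27 and 8.24 with RA and 8.66 and 8.61 with DMSO. Its difference of -0.38 ± 0.08 did not pass (adjusted p = 0.118). A second probe set, under the dim level, gave -0.37 ± 0.09. Socs3 passed in 1 of 15 alternatives, with only 1-symbol probe sets tested (adjusted p = 0.034). Cish, a Stat5 target that restrains the receptors that induce it, read 11.15 and 11.22 with RA and 11.44 and 11.43 with DMSO. The RA values were lower by a little on both of its probe sets, -0.25 ± 0.08 and -0.28 ± 0.10, and neither passed.

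Socs2, best known as a brake on growth hormone signalling and also a Stat5 target, had the opposite sign. It read 11.34 and 10.95 on the RA arrays and 10.65 and 10.87 on the DMSO arrays, with a difference of 0.38 ± 0.16 (adjusted p = 0.416). Its dimmer probe set gave the same size with closer replicates, 8.42 and 8.39 with RA and 8.06 and 7.97 with DMSO (0.38 ± 0.08, adjusted p = 0.128). Socs4, Socs5, Socs6 and Socs7, ubiquitin ligase adaptors with fewer known cytokine targets, differed by -0.08, -0.26, -0.20 and -0.07. Pias1, a SUMO ligase, had 11.05 and 10.92 with RA and 10.76 and 10.75 with DMSO (0.23 ± 0.09, adjusted p = 0.37). Pias3, its relative that restrains Stat3, differed by -0.02 ± 0.08.

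A wider list of 101 ligands, other receptor chains, signalling adaptors and Stat-regulated genes showed what surrounds these genes in the pathway. Of the 101, 92 were measured. Of the 92, 3 rose, 10 fell and 79 did not pass. The share called was 14.1%, against 3.07% of all genes and 5.16% of those with a mean above the dim level. The list was chosen with earlier results of these data known, so that share is not independent of them. The median difference of the 92 was 0.00, against 0.01 over all genes, and 32 of them lay under the dim level in both groups. Among them were the genes for the culture's own cytokines, Csf2 and Il4, and those for Ifng, Il7 and Il21.

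Of 27 measured ligands, 1 rose and 1 fell. Kitl, the stem cell factor that Kit binds, had 7.86 and 7.57 on the RA arrays, against 4.93 and 4.85 on the DMSO arrays. The DMSO values were under the dim level, so the 7.06-fold rise (2.82 ± 0.12, adjusted p = 0.00432) is against background, while Kit itself differed by -0.07. Kitl still passed without RA replicate 1 or RA replicate 2 and did not without DMSO replicate 1 or DMSO replicate 2 (adjusted p 0.0612 and 0.0585). Osm, which encodes oncostatin M, a gp130 cytokine, read 7.85 and 7.99 with RA and 8.96 and 8.82 with DMSO, 1.95-fold lower (-0.97 ± 0.10, adjusted p = 0.0235).

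Of 26 other receptor chains, 1 rose and 2 fell. Lifr, the chain that joins gp130 in receptors for Lif and oncostatin M, rose 2.92-fold, with 10.31 and 10.31 on the RA arrays, against 8.57 and 8.97 on the DMSO arrays (1.54 ± 0.15, adjusted p = 0.02). Il12rb2, the signalling chain of the interleukin 12 receptor, had 7.39 and 7.32 with RA and 9.53 and 9.49 with DMSO. Replicates were within 0.07 and the RA mean was 4.46-fold lower (-2.16 ± 0.08, adjusted p = 0.00308). Its partner Il12rb1 averaged 7.13 with RA and 7.08 with DMSO. Il31ra, the interleukin 31 receptor, read 7.46 and 7.74 with RA and 8.68 and 8.63 with DMSO (2.09-fold lower, adjusted p = 0.0279). Lifr and Il31ra lost their calls without any 1 of the 4 arrays (adjusted p 0.0585 to 0.137 and 0.076 to 0.193). Il12rb2 passed without RA replicate 2 (0.0441) and not without RA replicate 1, DMSO replicate 1 or DMSO replicate 2 (0.053 to 0.0543).

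Of 14 genes known to be regulated by Stat3, Stat5 or Stat6, 1 rose, 4 fell and 9 did not pass. The part of Stat activity in these differences was not tested. Ccnd2, the cyclin D2 gene and a Stat5 target, rose 3.85-fold, with 12.08 and 12.13 on the RA arrays, against 10.30 and 10.02 on the DMSO arrays (1.95 ± 0.12, adjusted p = 0.0074). Its relative Ccnd3, cyclin D3, was 1.87-fold lower, at 9.73 and 9.82 with RA and 10.74 and 10.61 with DMSO (adjusted p = 0.0218). The repressor gene Bcl6, whose promoter window above holds 3 Stat motifs, had 5.97 and 6.26 with RA and 8.74 and 8.65 with DMSO. The RA values were under the dim level, so its 5.98-fold fall (-2.58 ± 0.12, adjusted p = 0.00488) is against background. The survival gene Bcl2l1 was 1.81-fold lower and the stress gene Gadd45g 1.83-fold lower (adjusted p = 0.0275 and 0.0279). Pim1, a kinase gene induced by Stat factors, averaged 12.04 with RA and 11.91 with DMSO and did not pass.

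Among 22 phosphatases, adaptors and ubiquitin ligases of receptor signalling, 3 fell and none rose. Usp18, an inhibitor of the type I interferon receptor, was 2.31-fold lower, with 8.60 and 8.41 on the RA arrays, against 9.82 and 9.59 on the DMSO arrays (adjusted p = 0.0219). Ptprc, the CD45 phosphatase, read 11.47 and 11.49 with RA and 12.03 and 12.09 with DMSO (1.49-fold lower, adjusted p = 0.0438). Irs2, an adaptor of interleukin 4 and insulin receptors, had 7.88 and 7.80 with RA and 8.55 and 8.41 with DMSO (1.56-fold lower, adjusted p = 0.0498). That call was lost after median centring (adjusted p = 0.0572), quantile normalization (0.0516) and robust moderation of the variances (0.0503), and Irs2 passed in 4 of 14 alternatives. Of the 13 called genes in the wider list, 10 passed in none of the fits without 1 array, and all 13 kept their sign in every fit.

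**Figure D4:**
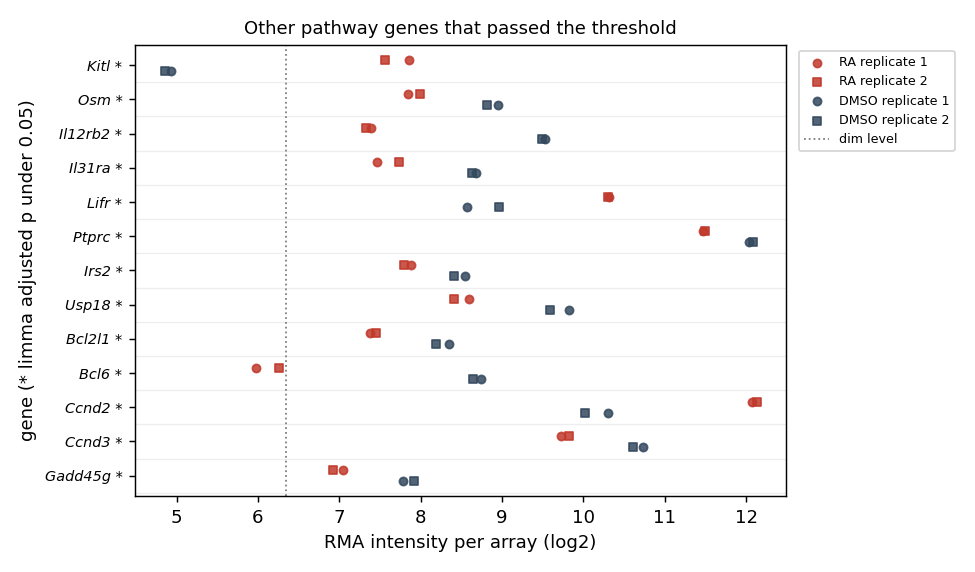
Log2 RMA intensity (x axis) of the 13 other pathway genes that passed an adjusted p of 0.05 (y axis) on each of the 4 arrays, with RA arrays in red above DMSO arrays in dark blue; the dotted line is the dim level, 6.35. The DMSO points of Kitl and the RA points of Bcl6 lie left of that line, and no gene's groups overlap.

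The calls among the 42 genes depended on which probe sets were tested together. Limma with only the 1-symbol probe sets called 9 genes, of which 8 were lower: Il7r, Il21r, Il6ra, Il17ra, Jak2, Tyk2, Socs1 and Socs3. Over all probe sets that fit called more as well, 1636 of 23521, against 831 of 39720 in the full test. The same 3 genes as in the full test were among the 9. With probe sets of constant value kept in the fit, limma called 0 of the 42, with 15 at an unadjusted p under 0.05. The smallest two-sided p that an exact permutation test over these 4 arrays allows is 0.333, so each call rests on limma's model of the variance.

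**Figure D5:**
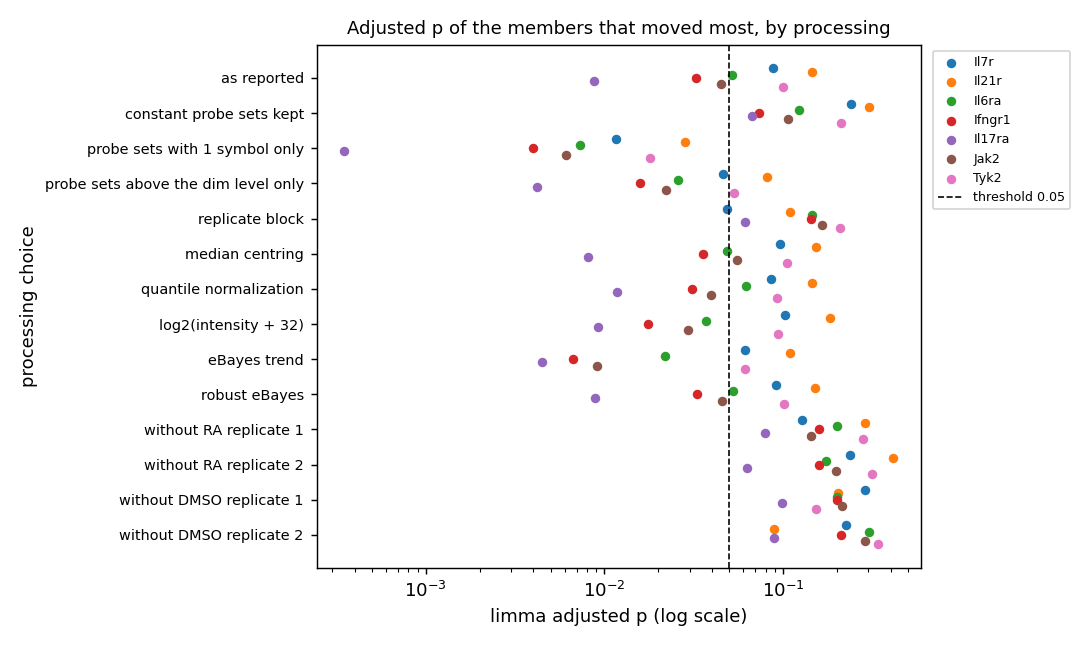
Limma adjusted p (x axis, log scale) of the 7 genes with a difference of at least 0.5 under each processing choice (y axis), with the dashed line at 0.05. Il17ra is the farthest left as reported, at 0.00876, and no gene lies left of the line when any 1 array is left out.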

How the data were processed

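Per the submitters' processing notes, the authors made 1 intensity per probe set and array with Affymetrix Expression Console and RMA, which corrects background, equalises probe distributions between arrays and summarises probes; RMA understates differences of dim genes. The deposited intensity values are linear, and log2 was taken here with no further normalization. Versions and the genome build are not given in the sources used here. Per the labels, WT PLUS labelling started from 250 ng of RNA. Of 41345 probe sets, 1625 held one identical value on all 4 arrays and were left out, leaving 39720. The annotation gave 23521 probe sets 1 symbol, 1814 several and left 16010 unnamed. A gene was represented by its brightest 1-symbol probe set.

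RA was compared with DMSO by limma 3.58.1 in R 4.3.3 (lmFit, eBayes, all 4 arrays, no covariates, two-sided), with Benjamini-Hochberg adjustment over all tested probe sets and a threshold of 0.05; the script was tested on simulated data. Genes named are the 42 measured genes, with all arrays' values for those that passed, differed by at least 0.5 or bind the culture's cytokines and for Csf1r, and the other pathway genes that passed. Values of other genes, such as Flt3, Il27ra, Socs1, Crlf2, Il12rb1 and Pim1, lie outside that rule and were chosen after their values were seen. The genes, lists, tests and the exclusion of constant probe sets were chosen with earlier results of these data known. Alternatives were other probe set filters, scalings, variance models, a pseudocount of 32, blocks and leaving out each array. Same-numbered replicates did not deviate together (correlation over probe sets -0.251), so the number was not taken as a pairing. The number of arrays limits the precision.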

Additional observations from a re-analysis of the deposited data

How the results depend on the processing

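As reported, 831 probe sets were called, with 1 of the 42 genes higher and 2 lower, and 13 other pathway genes called. Median centring, quantile normalization, robust variance, an intensity trend and, for genes with several probe sets, their mean left these counts within 1.5 times. With constant probe sets kept, limma called 0 in each (6260 probe sets, 15 of the 42 genes and 21 other pathway genes at an unadjusted p under 0.05). With 1-symbol probe sets alone, 1636 of 23521 probe sets and 8 of the 42 genes as lower were called. Above the dim level, 1235 of 19783 probe sets were called, and 5 of the 42 genes were lower. With log2(intensity + 32), 430 probe sets were called higher and 526 lower, and 4 of the 42 genes were lower. With the replicate number as a block, which the arrays do not bear out as a pairing, 161 probe sets, 0 genes higher, 1 lower (Il7r) and 4 other pathway genes were called. A crossed pairing, chosen after seeing the data, called 457 probe sets, 0 genes higher and 1 lower. Without any 1 array, 25 to 55 probe sets, 0 of the 42 genes in either direction (10 to 15 at an unadjusted p under 0.05) and 0 to 3 other pathway genes passed; the lone array of a group is then assumed to vary like the other group. These fits have fewer samples.

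Ifngr1, Il17ra and Jak2 kept their sign in all 14 alternatives. Signs turned only in genes near 0, none of which passed: Csf1r (0.0004 after median centring) and, over the fits without 1 array, Csf3r (-0.0293 to 0.135), Ifnar1 (-0.0517 to 0.0703), Jak1 (-0.0487 to 0.0215), Stat5b (-0.13 to 0.11), Il3ra (-0.139 to 0.0585), Csf2rb (-0.16 to 0.11) and Pias3 (-0.0698 to 0.0225). With 2 arrays a group, none of the 42 genes with a difference under 0.5 was called as reported.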
